A study of Capra hircus with 10 samples.

Results

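The circRNAs described here come from 4 host genes: PLIN2 of lipid droplets, INSR and PDE3B of insulin signalling, and GPCPD1 of glycerophosphocholine breakdown. They were chosen by host gene name in the table of circRNAs, each circRNA ID once, and gave 5 of the 1327 circRNAs and 4 of the 945 host genes listed. PLIN2 gave 2 circRNAs and the other host genes 1 each. The host genes were picked with their read counts in these libraries already known, so their differences between the groups are given as a description, and an adjusted p only says where a circRNA stood among all those fitted.

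The cells were wild-type goat intramuscular preadipocytes (IMPA, day 0 of induction, 5 libraries) and intramuscular adipocytes (IMA, day 3, 5 libraries), both carrying the label of adipogenic differentiation as treatment. They were isolated from fat within the longissimus dorsi muscle of 3 Jianzhou goats, male and 7 days old, grown in medium with 10% fetal bovine serum and changed at 90% confluence to induction medium, in which oleic acid was 50 µmol/L. The sources used here do not assign libraries to goats. Since there were 3 goats and 5 libraries per group, some libraries of a group must share an animal, and SDs and p values describe libraries.

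A circRNA forms when the spliceosome joins the end of an exon back to the start of the same or an earlier exon, and a read across that join is a junction read. The same primary transcript can instead give the linear mRNA, so a host gene has a circular and a linear output. In fat cells insulin acts through its receptor to promote glucose uptake and lipid storage, and it restrains lipolysis in part through phosphodiesterase 3B, which breaks down cyclic AMP. The stored lipid lies in droplets coated by perilipins.

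A pair of values was available for each circRNA and library. Junction reads are the reads across the back-splice. Non-junction reads, as CIRI2 defines them, lie at the ends of the circRNA without crossing its back-splice, and they were listed only where the circRNA had junction reads. Junction reads summed to between 11421 and 15553 per IMPA library and between 9622 and 12499 per IMA library. The authors report that a smaller share of the clean reads mapped in every IMA library than in any IMPA library. This difference cannot be told apart from the group, and its part in the values below was not tested. The smallest count above 0 was 2, and a count of 0 allows up to 3 reads, or 193 to 263 per 1000000 junction reads in IMPA and 240 to 312 in IMA. This limit covers counting error only, and a 0 can also stand for a circRNA that the callers left out in that library. Of the 11 adipocyte markers and the 11 preadipocyte and fibroblast markers examined, 0 had a circRNA in the table, so the labelled cell types could not be checked with these data.

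The structures of the 5 circRNAs differed. The circRNA of PLIN2 (perilipin 2, which coats lipid droplets), circ_0004263, spanned chromosome 8, 25000462 to 25002136, on the + strand and was annotated with 2 exons and a spliced length of 426 nt. The second, circ_0004262, lay upstream in the same gene at 24994567 to 24998067 and was annotated as intron, with 3 segments adding up to 378 nt. Of the 1327 circRNAs, 36 carried the intron annotation.

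The circRNA of INSR (the insulin receptor, a receptor tyrosine kinase), circ_0004143, lay on chromosome 7, 96049039 to 96049590, on the - strand and was a single exon of 552 nt. It was one of 38 circRNAs whose genomic span equalled their spliced length, and 97.5% of all circRNAs had a shorter spliced length. For PDE3B, circ_0007677 held 2 exons on chromosome 15, 44392366 to 44393218, on the + strand, with a spliced length of 279 nt. The circRNA of GPCPD1 (glycerophosphocholine phosphodiesterase 1, which releases choline and glycerol 3-phosphate), circ_0007034, spanned 8492 nt of chromosome 13, 47244844 to 47253335, on the - strand, but its only annotated exon of 124 nt reached 1 end. Of the 1274 exon circRNAs, 277 had 1 end at an annotated exon edge and 996 had both. The spliced length of circ_0007034 therefore holds only the annotated exon, and 4.45% of all circRNAs had a shorter one. The genome build of these positions is not given in the sources used here.

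**Figure D1:**
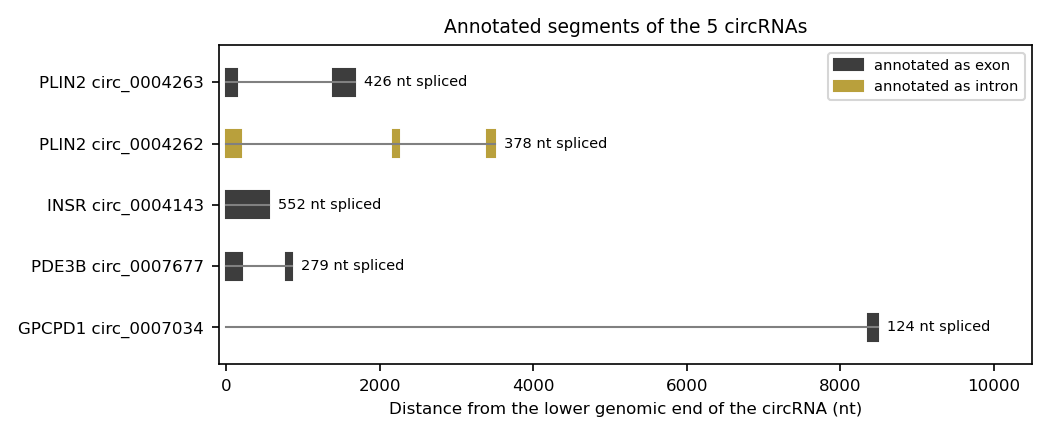
Annotated segments of the 5 circRNAs, drawn to scale as the distance in nt from the lower genomic end; boxes are segments annotated as exon or intron, and the line is the genomic span. INSR circ_0004143 is 1 unbroken exon of 552 nt, whereas GPCPD1 circ_0007034 spans 8492 nt with an annotated exon at 1 end.

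The junction reads of the 5 circRNAs ran from near the top of the table to near its bottom. By mean normalized TPM (junction reads per 1000000 junction reads of the library, scaled by TMM factors, with no length term since each circRNA has 1 junction), GPCPD1 circ_0007034 ranked 12 and INSR circ_0004143 ranked 14 of 1327. PLIN2 circ_0004263, whose mean is taken over groups of different level, ranked 647, PDE3B circ_0007677 ranked 1200 and PLIN2 circ_0004262 ranked 1306. Within IMPA the GPCPD1 circRNA was above that of INSR in 5 of 5 libraries, although their ranges overlapped, and within IMA in 3 of 5. The INSR circRNA was above the PLIN2 circRNA circ_0004263 with ranges apart in both groups. PLIN2 circ_0004263 and the PDE3B circRNA overlapped in IMPA and lay apart in IMA, and PDE3B and PLIN2 circ_0004262 overlapped in both groups.

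**Figure D2:**
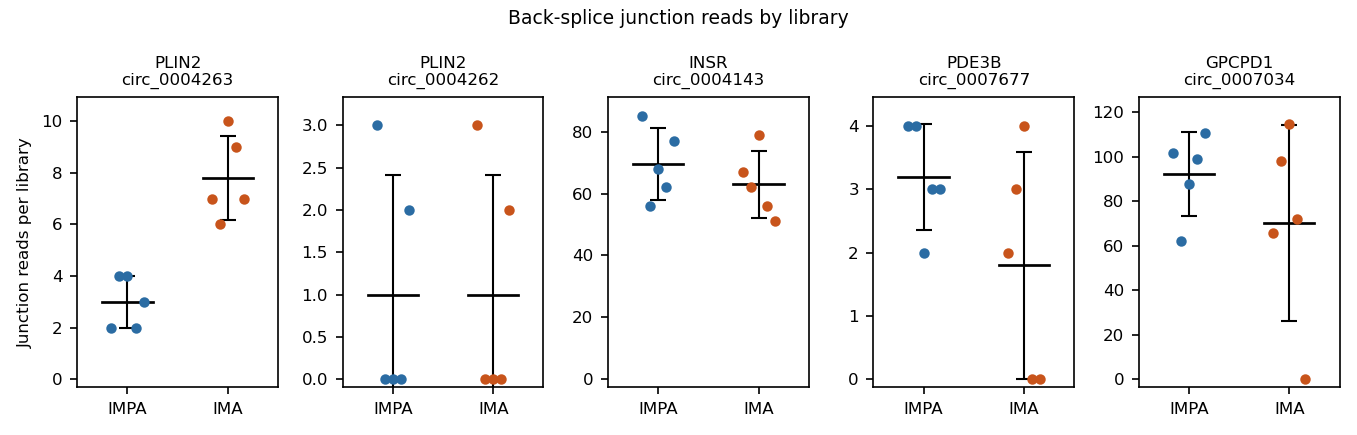
Junction reads per library of the 5 circRNAs in IMPA (blue) and IMA (orange), each point 1 library, with the mean and SD over 5 libraries as black lines. PLIN2 circ_0004263 has at most 4 reads in IMPA and at least 6 in IMA; GPCPD1 circ_0007034 has 62 to 115 reads except for 0 in IMA5.

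PLIN2 was the host gene whose reads differed most between the groups. The junction reads of circ_0004263 were 2, 4, 4, 2 and 3 in IMPA1 to IMPA5 and 7, 6, 10, 9 and 7 in IMA1 to IMA5. Every IMA library was above every IMPA library. The normalized TPM was 231 ± 86.8 in IMPA and 710 ± 138 in IMA (mean ± SD of 5 libraries per group), a fitted log2 fold change of 1.59 ± 0.47 (SE, 95% interval 0.65 to 2.54). This was place 26 from the highest of the 1294 circRNAs fitted with edgeR's quasi-likelihood test. The adjusted p was 0.0759. DESeq2's Wald test gave circ_0004263 an unadjusted p of 0.00172 but no adjusted p. Over the alternatives that gave one, the adjusted p ranged from 0.0564 to 0.207, above the threshold of 0.01 in all of them. At that threshold 0 of the 4 circRNAs tested were called, beside 12 of 1294 in the whole table (0.927%; 6 higher and 6 lower in IMA). Without TMM factors 8 were called, 6 higher and 2 lower, and 172 of the 1294 had an unadjusted p under 0.05. Groups that do not overlap in normalized TPM, as for circ_0004263, were seen in 59 of the 1294 (4.56%).

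The non-junction reads at the same PLIN2 circRNA were 882, 1010, 638, 835 and 733 in IMPA and 2416, 2274, 1932, 1991 and 1973 in IMA. These groups did not overlap either, as in 153 of 690 circRNAs (22.2%). After normalization (per 1000000 non-junction reads of the 690 circRNAs with reads in every library, TMM-scaled), they were 3969 ± 1045 in IMPA and 15164 ± 2427 in IMA (mean ± SD of 5 libraries per group). The fold change was 3.83 (log2 1.94 ± 0.12 SE, edgeR's quasi-likelihood test, adjusted p = 1.51e-14). It was the highest log2 fold change of the 690. Of the 2 circRNAs of these host genes in that fit, circ_0004263 and circ_0004143, 1 was called, beside 150 of 690 in the whole fit (21.7%). The 150 were 80 higher and 70 lower in IMA, and 48 higher and 106 lower of 154 without TMM factors, a scaling that moved the median log2 fold change from 0.00 to -0.06. PLIN2 circ_0004263 was called higher in IMA under each of the alternatives run.

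Markers of another tissue also differed between the groups, and their part in the PLIN2 result was not tested. Of 14 skeletal muscle markers, 4 had a circRNA (FHOD3, MYBPC1, MYPN and STAC). Their summed junction reads were 2 to 9 in IMPA and 22 to 35 in IMA. The authors list a circRNA of each of these 4 genes as upregulated in the same libraries. The rise of these markers in IMA is therefore a description and not an independent check. TTN, NEB and the myosin heavy chains had no circRNA. Of the 5 endothelial and the 4 immune markers, 0 had a circRNA. In bulk libraries, fewer cells of a type and less RNA per cell cannot be told apart.

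**Figure D3:**
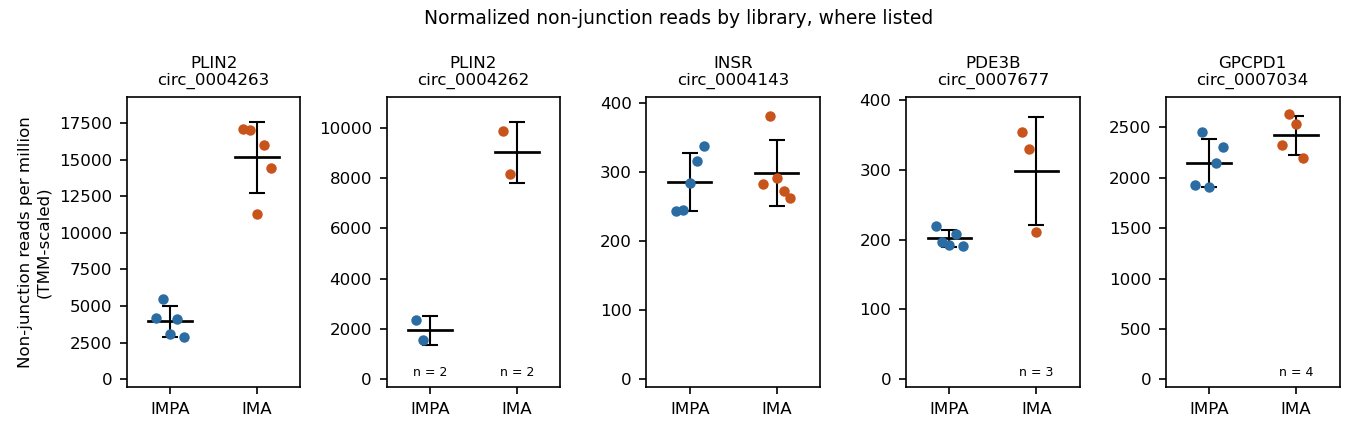
Normalized non-junction reads (per 1000000) of the 5 circRNAs by library, for libraries in which they were listed, with the mean and SD as black lines and n given where it is below 5. The 5 IMA libraries of PLIN2 circ_0004263 lie between 11286 and 17108 and the IMPA libraries between 2920 and 5515; the other host genes overlap.

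At circ_0004263 both junction and non-junction reads were higher in IMA, and the circular share overlapped between the groups. The circular share counts each junction read 2 times and divides by that number plus the non-junction reads. It was 0.451%, 0.786%, 1.24%, 0.477% and 0.812% in IMPA and 0.576%, 0.525%, 1.02%, 0.896% and 0.705% in IMA. The means were 0.753% ± 0.319 and 0.745% ± 0.212 (SD, n = 5 each). They differed by -0.00763 percentage points (p = 0.968 by a two-sided exact permutation test, adjusted p = 0.986 over 1183 circRNAs). Relative to the other circRNAs, the junction to non-junction ratio changed by -0.29 ± 0.47 (log2, SE), with an adjusted p of 0.783 by edgeR. The 95% interval of this relative change ran from -1.22 to 0.64. With counts of 2 to 10 junction reads, a shift within it remains possible. The ratio fit called 6.5% of 200 simulated 2-fold changes, drawn with a fixed dispersion over circRNAs of all depths. Changes of that size could therefore go uncalled. No circRNA of these host genes was called in the ratio (0 of 2), beside 5 of 690 (0.725%).

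The intron-annotated PLIN2 circRNA, circ_0004262, had 3, 0, 0, 0 and 2 junction reads in IMPA and again 3, 0, 0, 0 and 2 in IMA. Both groups were at the floor of 3 reads, so no fold is given, and it did not pass the filter of a count above 0 in at least 5 libraries. Its non-junction reads were listed in the libraries with junction reads alone, 492 and 389 in IMPA1 and IMPA5 and 1395 and 1119 in IMA1 and IMA5. Both IMA values were above both IMPA values. With 2 libraries per group such a separation carries little weight, and its frequency over all circRNAs was not counted. In these 4 libraries the non-junction reads of circ_0004262 amounted to 55.8%, 53.1%, 57.7% and 56.7% of those at circ_0004263. The circular share of circ_0004262 was 1.20% and 1.02% in IMPA1 and IMPA5 and 0.428% and 0.356% in IMA1 and IMA5. Both IMA shares were below both IMPA shares. Groups of 5 libraries did not overlap in circular share for 35 of 690 circRNAs (5.07%). No such count was made for 2 libraries per group. The listed junction reads of circ_0004262 were 3 and 2 in each group, so its shares only mirror the non-junction reads. They rest on 2 or 3 junction reads in 2 libraries per group and were not tested. The 2 PLIN2 circRNAs share a host transcript, so they are not separate measurements of PLIN2.

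**Figure D4:**
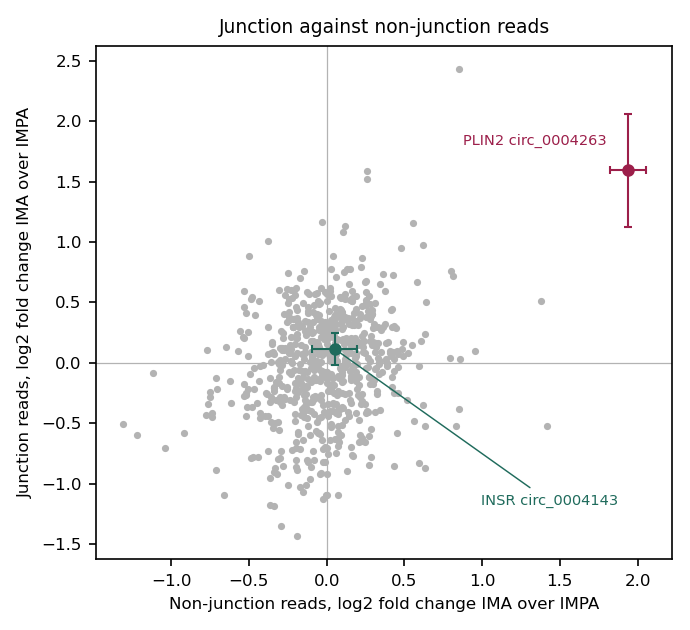
Log2 fold change of IMA over IMPA in junction reads against that in non-junction reads, for the circRNAs in both fits; grey points are circRNAs and the coloured points with SE bars are PLIN2 circ_0004263 and INSR circ_0004143. PLIN2 lies at 1.94 and 1.59, at the right edge of all points, and INSR at 0.05 and 0.12.

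The INSR circRNA was abundant and near the same level in both groups. Its junction reads were 85, 56, 68, 62 and 77 in IMPA and 67, 62, 79, 56 and 51 in IMA. The normalized TPM was 5270 ± 536 in IMPA and 5704 ± 526 in IMA (mean ± SD of 5 libraries per group), with overlapping ranges. The log2 fold change was 0.12 ± 0.13 (SE, edgeR, adjusted p = 0.735), and its 95% interval of -0.15 to 0.38 corresponds to a fold of 0.899 to 1.30.

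Reads at the ends of the INSR exon that did not cross the back-splice were few. They numbered 51, 45, 59, 64 and 85 in IMPA and 40, 51, 50, 34 and 36 in IMA. Of the 690 circRNAs with reads in every library, 12.5% had fewer non-junction reads on average. After normalization they were 286 ± 42.3 and 299 ± 47.8 per 1000000 (SD, n = 5 each), a log2 difference of 0.05 ± 0.14 (SE, edgeR, adjusted p = 0.815), and the sign turned without TMM factors (-0.013).

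The circular share of INSR was accordingly high, at 76.9%, 71.3%, 69.7%, 66.0% and 64.4% in IMPA and 77.0%, 70.9%, 76.0%, 76.7% and 73.9% in IMA. Averaged over the 10 libraries it was 72.3%, and 4 of the 690 circRNAs had a higher mean share, against a median of 11.8%. The mean was 69.7% ± 4.91 in IMPA and 74.9% ± 2.56 in IMA (mean ± SD of 5 libraries per group), and the ranges overlapped. The difference of 5.21 percentage points had an exact permutation p of 0.0873 (two-sided, adjusted p = 0.332), where the smallest p possible was 0.00794. Without IMPA1 it was 7.02 points with an unadjusted exact permutation p of 0.0238; with all libraries, 205 of 1183 circRNAs (17.3%) had an unadjusted p under 0.05 and 0 passed after adjustment. The median share over circRNAs was also higher in IMA, 11.9% to 12.7% per library against 9.84% to 11.2% in IMPA. Relative to the other circRNAs, the log2 ratio of junction to non-junction reads changed by 0.09 ± 0.20 (SE, edgeR, adjusted p = 0.856).

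**Figure D5:**
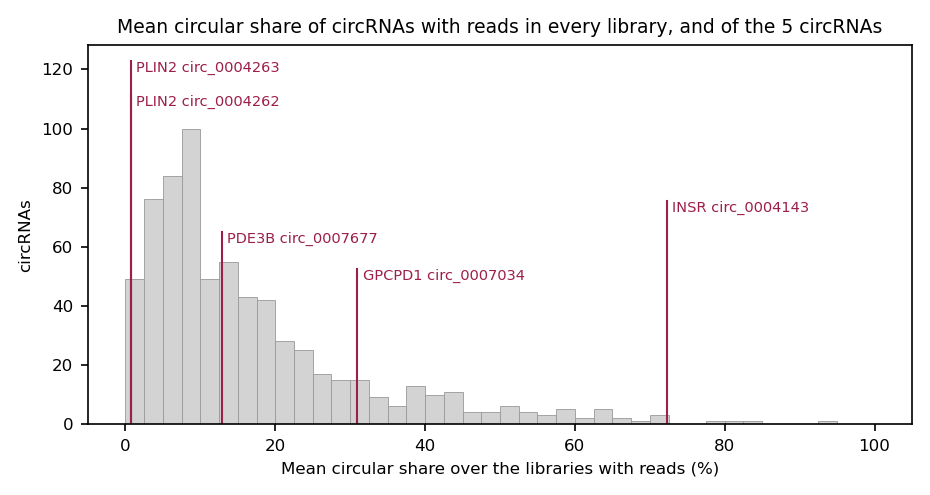
Distribution of the mean circular share (%) over the 690 circRNAs with reads in every library (grey bars, number of circRNAs per bin), with the 5 circRNAs as red lines whose height has no meaning; PLIN2 circ_0004262, PDE3B and GPCPD1 are means over 4, 8 and 9 libraries. The PLIN2 circRNAs lie at 0.75%, PDE3B at 12.9%, GPCPD1 at 31.0% and INSR at 72.3%.

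The PDE3B circRNA was close to the detection limit. It had 4, 4, 2, 3 and 3 junction reads in IMPA and 2, 3, 4, 0 and 0 in IMA. The libraries IMA4 and IMA5 had none, and the other IMA libraries lay within the range of IMPA. The normalized TPM was 247 ± 77.6 in IMPA and 155 ± 151 in IMA (mean ± SD of 5 libraries per group), with a log2 fold change of -0.56 ± 0.74 (SE, edgeR, adjusted p = 0.768) that became 0.09 ± 0.64 (SE, adjusted p = 0.979) without IMA4 and IMA5. A change of this circRNA was not detectable at this depth.

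Non-junction reads at PDE3B were listed for 8 libraries, 46, 36, 40, 42 and 48 in IMPA and 50, 44 and 36 in IMA1 to IMA3. After normalization they were 202 ± 11.9 (SD, n = 5) and 298 ± 76.9 (SD, n = 3) per 1000000, and IMA3 at 210 fell within the IMPA range of 191 to 219. With IMA4 and IMA5 left out of the fit, the log2 fold change was 0.54 ± 0.18 (SE, edgeR, adjusted p = 0.0306), not past the threshold of 0.01, which 104 of 795 circRNAs passed in that fit (13.1%). The circular share was 13.1% ± 3.51 over the 5 IMPA libraries and 12.5% ± 5.41 over the 3 IMA libraries (mean ± SD), which differ by -0.610 points (p = 0.804 by a two-sided exact permutation test whose smallest possible p was 0.0179). IMA4 and IMA5, with 0 junction reads, have no share here. If that 0 is a true count, the IMA mean is too high. Of the 690 circRNAs, 53.6% had a lower mean share.

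The GPCPD1 circRNA had 102, 62, 88, 99 and 111 junction reads in IMPA and 66, 98, 115, 72 and 0 in IMA. The first 4 IMA libraries lay from 66 to 115 reads, and IMA5, with 10234 junction reads in all and 1161 circRNAs detected, had none. Among the 51 circRNAs with at least 20 reads in 9 or more libraries, it was the single one with a 0 in the remaining library. Whether the 0 of IMA5 is a missing call or a low level was not tested.

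The value for IMA therefore depended on 1 library. The normalized TPM was 6985 ± 1091 over the 5 IMPA libraries, 6279 ± 3787 over the 5 IMA libraries and 7848 ± 1642 over the 4 without IMA5 (mean ± SD). The log2 fold change was -0.14 ± 0.28 (SE, edgeR, adjusted p = 0.860) with all libraries and 0.17 ± 0.14 (SE, adjusted p = 0.629) without IMA5. With limma voom on all libraries it was -1.25 ± 0.70 (SE, adjusted p = 0.328), a fold of 0.421. The ranges overlapped with and without IMA5. The 95% interval of edgeR's log2 fold change was -0.72 to 0.43 with all libraries and -0.10 to 0.45 without IMA5.

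Non-junction reads at GPCPD1 were 404, 450, 395, 434 and 578 in IMPA and 328, 351, 433 and 274 in IMA1 to IMA4. Normalized, they were 2147 ± 239 (SD, n = 5) and 2420 ± 194 (SD, n = 4) per 1000000, with overlapping ranges. In the fit without IMA5 the log2 fold change was 0.18 ± 0.08 (SE, edgeR, adjusted p = 0.0920), and 128 of 729 circRNAs were called there (17.6%). The circular share was 29.0% ± 4.63 over the 5 IMPA libraries and 33.4% ± 3.20 over the 4 IMA libraries (mean ± SD), which differ by 4.41 points (p = 0.143 by a two-sided exact permutation test, adjusted p = 0.403). IMA5, with 0 junction reads, has no share here. If that 0 is a true count, the IMA mean is too high. Of the 690 circRNAs, 85.5% had a lower mean share. 

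The 4 lists of related genes, without the host genes above, gave few circRNAs. Of 62 lipid droplet and storage genes, 3 were hosts (ACSL3, ACSL5 and VPS13C). Of their circRNAs 2 were tested for junction reads and 0 called, beside 12 of 1294 over all circRNAs (0.927%). VPS13C circ_0005499, from a lipid transfer protein gene, had 2 to 6 junction reads in IMPA and 2 to 7 in IMA. ACSL3 circ_0001116, from a gene of fatty acid activation, had 0 to 6 and 2 to 5. PLIN2 was the one perilipin gene with a circRNA in the table.

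Of 68 insulin signalling genes, 10 were hosts of 19 circRNAs. Of the 18 tested for junction reads 0 were called, beside 12 of 1294 over all circRNAs (0.927%). The log2 fold change was above 0 for 6 of the 18 and below for 12, beside 574 above and 720 below over all 1294. The median of the 18 was -0.08, as over all 1294 circRNAs (-0.08). IGF1R circ_0009919, from the receptor gene closest to INSR in kind, had 22 to 38 junction reads in IMPA and 15 to 33 in IMA (log2 fold change -0.06 ± 0.21 SE, edgeR, adjusted p = 0.919). MAPK8 circ_0011486, from the gene of the stress kinase JNK1, had 9 to 17 and 3 to 7 reads (-0.91 ± 0.35 SE, adjusted p = 0.215). In non-junction reads 2 of the 11 tested were called, both lower in IMA and both at PHLPP1, a phosphatase of AKT: circ_0010669 at -0.71 ± 0.14 (SE, edgeR, adjusted p = 0.000177) and circ_0010668 at -0.75 ± 0.16 (SE, adjusted p = 0.000525), which share reads. This compares with 150 of 690 over all circRNAs.

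Of 39 genes of cyclic AMP and phosphodiesterases, 3 were hosts (ADCY9, PDE3A and PDE5A) of 3 circRNAs. Of these, 0 were called for junction reads, beside 12 of 1294 over all circRNAs (0.927%). In non-junction reads 1 of the 3 was called, beside 150 of 690 over all circRNAs (21.7%). That one was circ_0002966 of PDE3A, the paralog of PDE3B, with 70 to 118 non-junction reads in IMPA and 69 to 99 in IMA (log2 fold change 0.41 ± 0.11 SE after normalization, edgeR, adjusted p = 0.00612). Its junction reads were 8 to 12 in IMPA and 7 to 15 in IMA (0.44 ± 0.30 SE, adjusted p = 0.538). Of 39 genes of choline and glycerophospholipid turnover, the one host, PLA2G4A, had 2 circRNAs and neither passed the filter.

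The predicted miRNA partners, which the authors deposited as pairs of names, differed in number between the 5 circRNAs. The list held 15242 pairs of 435 miRNAs, with a median of 9 miRNAs per circRNA and of 29 per 1000 nt of spliced length. INSR circ_0004143 was paired with 26 miRNAs, and 98.9% of circRNAs had fewer. The count grows with length, and per 1000 nt it had 47.1, with 89.3% of circRNAs lower. By name, 6 of these belonged to the miR-15/16 family (chi-miR-15a-5p, chi-miR-15b-5p, chi-miR-16a-5p, chi-miR-16b-5p, chi-miR-195-5p and chi-miR-424-5p) and 6 to the miR-34 family (chi-miR-34a, chi-miR-34b-5p, chi-miR-34c-5p, chi-miR-449a-5p, chi-miR-449b-5p and chi-miR-449c).

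PLIN2 circ_0004263 was paired with 17 miRNAs, chi-miR-103-3p and chi-miR-107-3p among them, and circ_0004262 with 12, among them chi-miR-26a-5p and chi-miR-26b-5p. PDE3B circ_0007677 was paired with 8, with chi-miR-30a-3p and chi-miR-30e-3p among them, and GPCPD1 circ_0007034, with its short annotated exon, with 1. Of the 62 miRNAs paired with any of the 5 circRNAs, 2 were paired with more than 1 host gene: chi-miR-29a-5p with GPCPD1 and PLIN2, and chi-miR-93-3p with PDE3B and PLIN2. They were paired with 5.28% and 7.46% of all circRNAs. The pairs are predictions, and no binding was measured.

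By Pearson correlation of log2 normalized junction reads over the 10 libraries, among circRNAs with a mean of at least 10 reads, PLIN2 circ_0004263 was most like QKI circ_0005130 (r = 0.889) and VASH2 circ_0008259 (r = 0.878). INSR was most like EPB41L4A circ_0005828 (r = 0.829) and CUL1 circ_0002478 (r = 0.759). PDE3B was most like VRK1 circ_0009849 (r = 0.761) and USP25 circ_0000348 (r = 0.758). With IMA5 left out, where PDE3B had 0 reads, its values fell to 0.642 and 0.574. GPCPD1 was most like C16H1orf27 circ_0008228 (r = 0.957), which also had 0 reads in IMA5, and RPS6KC1 circ_0008254 (r = 0.800). Without IMA5 these fell to 0.275 and -0.10, so the likeness to GPCPD1 rested on that library. The libraries share depth and group, and the values are a description.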

How the data were processed

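RNA depleted of ribosomal RNA was sequenced on Illumina HiSeq by the authors, who kept circRNAs that both CIRI2 and find_circ (2 reads or more) placed at the same location. The junction read counts were deposited by the authors without normalization. The deposited TPM values are CPM values, scaled to 1000000 junction reads with no term for length, and differed from that formula by at most 4.99e-06. The genome build is not given in the sources used here. SAMtools is the one tool named in the submitters' processing notes. The circRNA table had 1330 rows for 1327 circRNAs, and its junction counts matched the count table (0 differ). It names 10 further samples, which were not used. All 945 host gene IDs were found in a RefSeq gene table.

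The members and lists were chosen with earlier results of these data known. The circRNAs named are all those of the 4 host genes, the 2 most alike of each, and from each list the one with most junction reads and those with an adjusted p under 0.05, or else the smallest p. Groups came from the sample labels. Junction reads were fitted with edgeR 4.0.16 (R 4.3.3; TMM, glmQLFit and glmQLFTest, Benjamini-Hochberg at 0.01) over the 1294 circRNAs that had reads in 5 or more of the libraries. Since non-junction reads were listed only beside junction reads, their fit and that of the ratio, with the library as a block, used the 690 circRNAs listed in every library in place of the same filter. Intervals are 95%, from the quasi-likelihood SE. The circular share was compared by an exact permutation test. Alternatives were DESeq2 1.42.0 size factors, library totals, other filters, DESeq2's Wald test, limma 3.58.1 voom, a threshold of 0.05, a replicate block, each library left out, another definition of the share and, chosen after seeing the data, IMA4 and IMA5 left out. On simulated 2-fold changes the junction fit called 24.2% of 62 changed circRNAs with a mean of at least 10 reads (11.7% of all 196 changed), the non-junction fit 90.5% of 200 and the ratio fit 6.5% of 200, with 0 unchanged circRNAs called in each. Of the junction counts above 0, 68.8% were under 10. No sequence of a circRNA or miRNA was used here. Other steps ran in Python 3.11.15 (numpy 2.4.6, scipy 1.17.1).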

Additional observations from a re-analysis of the deposited data

Results flagged for a closer look

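For the 24 sets of 5 or 4 libraries examined (a circRNA, a measure and a group), 2 had a library far from the others, and chance gives about 1 in 20. INSR circ_0004143 had a normalized TPM of 6205 in IMPA1, and the gap to the nearest IMPA library was 0.761 of the range of that group. The same circRNA had 381.9 normalized non-junction reads per 1000000 in IMA2, with a gap of 0.754 of the range. Without IMPA1 the log2 fold change of INSR in junction reads was 0.17, against 0.12 with all libraries. In non-junction reads it was -0.0013 without IMPA1 and -0.040 without IMA2, against 0.05 with all libraries.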

How the results depend on the processing

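Where they were tested, the circRNAs of the 4 host genes gave 0 calls in junction reads and in the ratio, and PLIN2 circ_0004263 alone was called in non-junction reads. In non-junction reads and the ratio, GPCPD1 was tested only without IMA5 and PDE3B only without IMA4 and IMA5. In junction reads filterByExpr and a mean of at least 10 tested INSR and GPCPD1 alone. DESeq2's Wald test gave no adjusted p for the junction reads of PLIN2 circ_0004263 and PDE3B. Over all circRNAs, the count called in junction reads was 12, or 19 at a threshold of 0.05, 4 without IMA4 and IMA5, and 6 to 12 with 1 library left out (7 without IMA1 and without IMA2, 6 without IMA4). In non-junction reads it was 150, or 246 at 0.05 and 116 to 151 with 1 library left out. In the ratio it was 5, or 15 at 0.05, 2 without IMA4 and IMA5, and 4 to 7 with 1 left out. Log2 fold changes that turned in sign were, in junction reads, GPCPD1 (0.17 without IMA5, the range with 1 library left out being -0.31 to 0.17, and 0.21 without IMA4 and IMA5) and PDE3B (0.092 without IMA4 and IMA5). In non-junction reads INSR turned (-0.013 without TMM factors, and -0.040 to 0.14 with 1 library left out, below 0 without IMPA1 and without IMA2), and in the ratio INSR (-0.024 without IMPA5, in a range of -0.024 to 0.20) and GPCPD1 (-0.010 without IMA4 and IMA5). GPCPD1 was also -1.25 with limma voom on all libraries, against -0.14. None of them was past the threshold, and the cause was not tested. With 1 library left out, the difference in circular share ranged from -0.0830 to 0.114 points for PLIN2, 3.90 to 7.02 for INSR, -3.44 to 1.95 for PDE3B and 2.55 to 5.98 for GPCPD1. The highest value of INSR, without IMPA1, had an unadjusted exact permutation p of 0.0238, which was not adjusted over all circRNAs.

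The replicate numbers were not taken as a pairing, since the residuals of same-numbered libraries correlated at -0.052 to 0.011 for junction and -0.18 to 0.16 for non-junction reads. With the number as a replicate block, 11 circRNAs were called in junction reads, 173 in non-junction reads and 5 in the ratio. With reads summed over both PLIN2 circRNAs, the difference in its share was -0.112 points (exact permutation p = 0.516), against -0.00763. Since circ_0004262 was listed only in IMPA1, IMPA5, IMA1 and IMA5, the sum differs from circ_0004263 alone in those libraries only. The other host genes have 1 circRNA. Removing the filter on non-junction reads was not run, since they are not listed where a circRNA has no junction reads. Few junction reads (2 to 10 where above 0) limit what can be said of the PLIN2 and PDE3B circRNAs.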
